A study of Mus musculus with 8 samples.

Results

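Gja1 and Gja3 are the connexin genes described here, 2 of 26180 mouse genes with curated RefSeq transcripts. Every ATAC-seq peak that overlapped either gene body or the 50 kb on each side of it was taken, in all 63 of 345333 peaks. Chromatin accessibility had been measured by ATAC-seq, in which a transposase cuts open DNA and adds sequencing adapters to it. The lens epithelium and the lens fibers were microdissected from CD1 mice in the embryo (E14.5) and just after birth (P0.5), which gives 4 groups of 2 libraries each. No allele or treatment is named for any group, and each library was made from the lenses of several animals. The authors pooled both libraries of a group, so each group is 1 peak list without replicate error and no test across libraries could be made. Differences between lists are therefore given as values, with intervals that cover counting error only.

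Connexins are membrane proteins that assemble into hexameric channels, and the channels of neighboring cells dock to form gap junctions through which ions and small metabolites pass. The lens has no blood vessels of its own, and its cells depend on this coupling for the supply of nutrients and the removal of waste. Gja1 encodes connexin 43, the connexin typical of the lens epithelium, whereas Gja3 encodes connexin 46, which fiber cells make. Mutations of GJA3 cause congenital cataract in humans.

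The lists held 100003 peaks in epithelium and 123743 in fiber at E14.5, and 58592 and 62995 at P0.5. The fold enrichment and the p value of a peak together give back the whole number of pooled fragments that lay over its summit, the base with the highest coverage. The background of a list is the single average coverage that the peak caller set it against, and it was 1.61, 2.37, 1.36 and 1.16 fragments per base in the same order. Dividing the summit fragments by this background gives the depth-scaled height used below to set lists side by side. The lowest summit of any peak held 7, 8, 7 and 6 fragments, so a region under that height could not enter the list. Over the regions called in both lists, with the strongest summit that each list had in the region, the median depth-scaled height in fiber was 0.932 times that in epithelium at E14.5 and 0.620 times at P0.5. Set against E14.5, the P0.5 height had a median ratio of 0.659 in epithelium and 0.443 in fiber, and the ratios of single regions below should be read against these. The labelled tissues were checked by gene body coverage, the percent of bases between the ends of a gene that lie in peaks. Over 8 fiber genes, among them the crystallin gene Cryaa, median coverage was 6.08% in epithelium and 87.3% in fiber at E14.5, and 1.64% and 10.3% at P0.5. Over 5 epithelium genes, among them Pax6 and Foxe3, it was 42.3%, 59.6%, 17.2% and 16.1%, so this list did not set the epithelium apart from the fibers. Median coverage of 6 endothelial genes lay between 0.462% and 1.81% and that of 5 macrophage genes between 0 and 2.88%. Of the endothelial genes 0, 1, 1 and 2 had no covered base, and single genes reached 3.30%. A peak lay within 2 kb of a start for 5, 4, 3 and 2 of the 6, Kdr and Cdh5 in every list. Among all protein-coding genes of at least 1 kb, 74.8%, 75.7%, 71.3% and 68.8% had such a peak. Of the macrophage genes 1, 2, 2 and 4 had no covered base, Adgre1 in every list, and single genes reached 5.53%. Of all protein-coding genes of at least 1 kb, 21.0%, 20.1%, 24.8% and 26.3% had no covered base. Medians were 0.402% to 5.79% over 5 retina genes and 4.12% to 10.3% over 6 genes of cornea and periocular mesenchyme. Except for retina in P0.5 epithelium, they were above the medians of all these protein-coding genes, 2.55%, 4.06%, 1.39% and 1.29%. Rax of the retina genes reached 26.7% and Foxc1 of the last set 57.9%, both in E14.5 fiber. Crx and Krt12, of the same 2 sets, had no covered base in any list. The part of such cells in the connexin peaks was not tested.

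Gja1 lies at chr10:56377300-56390419 on the plus strand of GRCm38 and spans 13120 bp. Its curated transcript has 2 exons, a non-coding first exon of 219 bp and a second exon that holds all 1149 bp of the coding sequence. Its window held 7 peaks in epithelium and 6 in fiber at E14.5, and 7 and 2 at P0.5. Merging the peaks of the 4 lists at a distance of 10 bp gave 9 regions. Of these, 2 were called in every list and 4 in a single list, shares of 22.2% and 44.4% beside 10.9% and 59.5% of all 185368 merged regions. No base of the coding sequence was in a peak of any list.

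**Figure D1:**
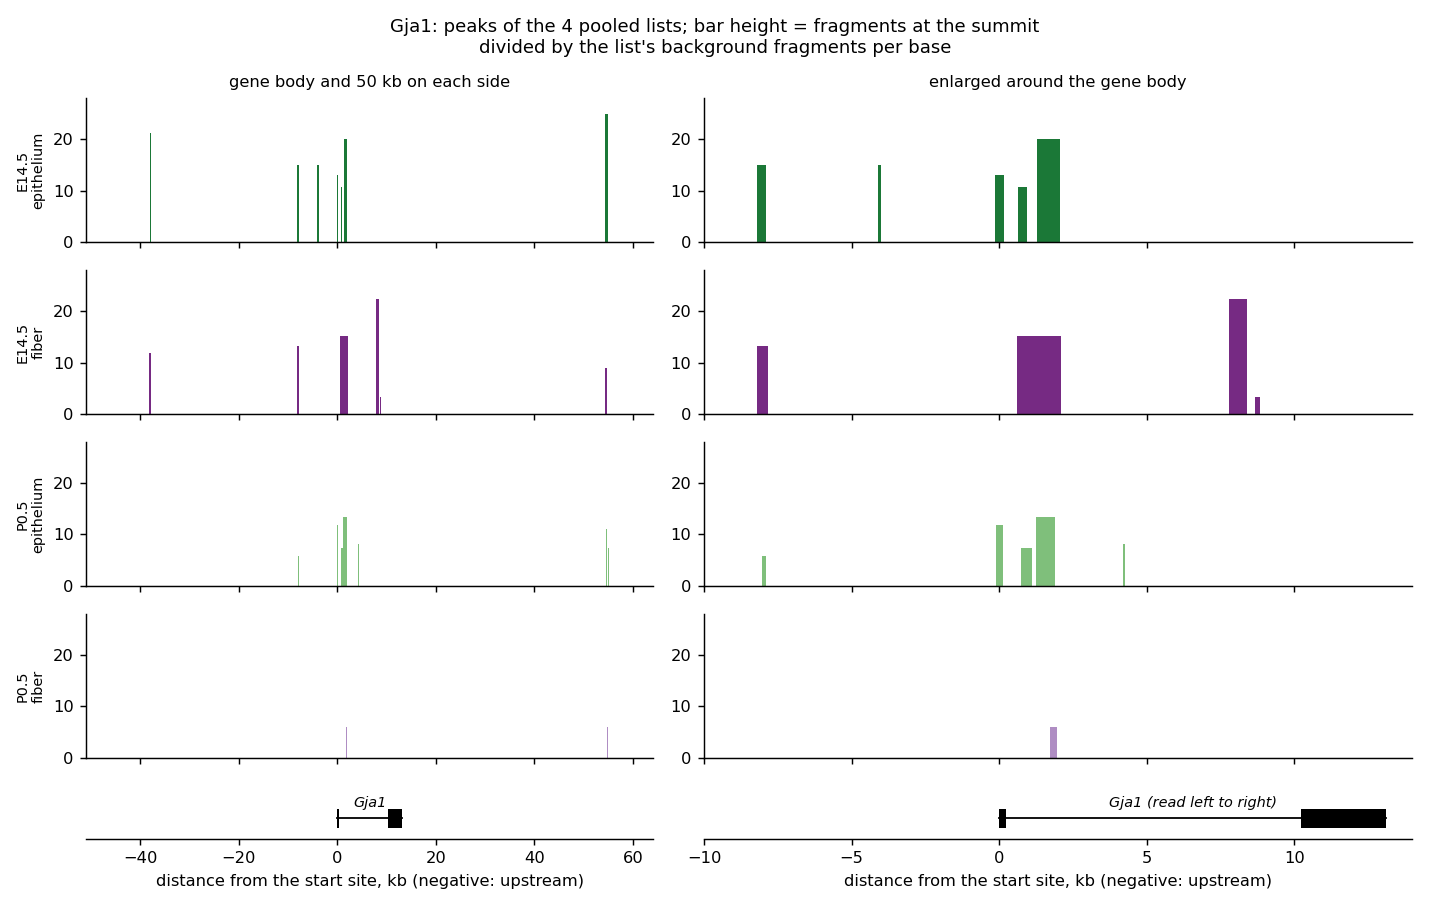
Peaks around Gja1 in the 4 lists by distance from the start site in kb, with the gene body and 50 kb on each side on the left and an enlarged view on the right. Each bar spans 1 peak, and its height is the number of summit fragments divided by the background of the list, not the coverage along the peak. The lowest row draws the exons as black boxes. Both epithelium lists have a bar over the start site and the fiber lists have none, and the bar at 8.08 kb stands only in E14.5 fiber.

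The start site of Gja1 was called in both epithelium lists and in neither fiber list. Among all merged regions 2.28% had this pattern. The summits lay 77 bp upstream of the start in E14.5 epithelium and 79 bp upstream in P0.5 epithelium. E14.5 epithelium had 21 fragments over the summit, a depth-scaled height of 13.1 with a 95% counting interval of 8.08 to 20. P0.5 epithelium had 16 fragments and a height of 11.8, with an interval of 6.75 to 19.2, so the heights of both stages overlapped widely. At the depth of E14.5 fiber, 21 fragments correspond to 31.0, where the lowest peak of that list had 8. At the depth of P0.5 fiber, the 16 fragments of P0.5 epithelium correspond to 13.7, where the lowest peak had 6. A site of equal scaled height would thus stand above the smallest peaks of both fiber lists. How many fragments the fiber libraries had at the start site is not known from the peak lists.

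The 250 bases before the start site, which carry both epithelial summits, are shown because this is the part of Gja1 called by tissue alone. They are RefSeq sequence of GRCm38, chr10:56377050-56377299, plus strand, read toward the start, and capitals mark the motif matches described next.
Gja1 promoter: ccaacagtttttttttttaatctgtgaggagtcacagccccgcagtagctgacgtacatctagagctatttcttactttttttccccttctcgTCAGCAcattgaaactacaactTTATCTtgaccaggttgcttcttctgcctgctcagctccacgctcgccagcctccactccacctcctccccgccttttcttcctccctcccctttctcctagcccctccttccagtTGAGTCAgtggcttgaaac
The match nearest to the start, TGANTCA of AP-1 factors, begins 19 bp upstream of it, and 6.75% of the 250-base stretches before all RefSeq starts held that motif. A Gata match, AGATAA on the opposite strand, begins at 135 bp and a Maf match, TGCTGA on the opposite strand, at 157 bp upstream. These motifs were held by 9.99% and 16.1% of the stretches. The matches do not overlap, and a match describes letters, not binding.

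A merged region in the first intron of Gja1, from 0.590 kb to 2.1 kb downstream of the start, had a peak in every list. The peaks overlapped only in part. Its strongest peak had 32 summit fragments in epithelium and 36 in fiber at E14.5, and 18 and 7 at P0.5. Depth-scaled heights were 19.9, 15.2, 13.3 and 6.05. E14.5 epithelium and fiber did not differ beyond counting error, since the ratio of epithelium to fiber was 1.31 with an interval of 0.788 to 2.17. The summits of these lists and of P0.5 epithelium lay 1.40 to 1.45 kb downstream of the start, whereas that of P0.5 fiber lay at 1.91 kb. No ratio is therefore given with P0.5 fiber. The peaks differed in breadth: a single peak of 1511 bp in E14.5 fiber stood beside 2 peaks in each epithelium list and 1 of 212 bp in P0.5 fiber. GENCODE, a second gene annotation, places further Gja1 starts 1.14 kb and 1.79 kb downstream of the RefSeq start. The start at 1.79 kb lay in a peak of every list, that at 1.14 kb only in a peak of E14.5 fiber.

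The 200 bases around the strongest summit of this intron region, chr10:56378639-56378838, are shown because they lay in peaks of all lists except P0.5 fiber. They held 63.5% G and C and 16 CpG dinucleotides, and 92.1% of merged regions had a lower GC content around their summit.
Gja1 first intron near the start: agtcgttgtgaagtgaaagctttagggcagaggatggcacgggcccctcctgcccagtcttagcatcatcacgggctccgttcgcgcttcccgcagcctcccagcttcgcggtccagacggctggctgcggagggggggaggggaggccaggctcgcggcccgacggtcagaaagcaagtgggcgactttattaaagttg
None of the 14 motifs searched is present in these letters, hence no capitals.

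The tallest peak of Gja1 in any fiber list lay deeper in the intron, 8.08 kb downstream of the start, and was called in E14.5 fiber alone. It was 608 bp wide and had 53 summit fragments, a depth-scaled height of 22.3 with an interval of 16.7 to 29.2. By fold enrichment, 16.0, it ranked in the top 13.3% of its list, and 77.9% of genes had a better-ranked peak in their window. The best Gja1 peak within 2 kb of the start ranked at 19.5%, 19.5%, 31.6% and 69.2% of the lists. Of the genes with a peak there, 77.6%, 81.2%, 82.3% and 95.4% had a better rank. The same height would correspond to 35.9 fragments at the depth of E14.5 epithelium, whose lowest peak had 7, and to 25.9 at the depth of P0.5 fiber, whose lowest had 6. A small peak of 8 fragments lay next to it at 8.75 kb, also in E14.5 fiber only and at rank 97.7% of the list. Regions called only in E14.5 fiber made up 29.3% of all merged regions, so the pattern itself is common.

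The 200 bases around that summit, chr10:56385278-56385477, carry the Gja1 peak that was called in embryonic fibers only.
Gja1 intron at 8 kb: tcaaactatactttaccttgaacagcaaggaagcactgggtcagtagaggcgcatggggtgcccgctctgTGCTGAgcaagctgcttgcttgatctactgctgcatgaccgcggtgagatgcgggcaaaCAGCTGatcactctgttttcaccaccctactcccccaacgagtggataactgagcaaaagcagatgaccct
The capitals mark TGCTGA, the Maf motif, and CAGCTG, the AP-4 motif, which begin 8048 and 8107 bp downstream of the start. Of the 200-base stretches around the summits of merged regions, 23.1% held the first and 18.2% the second.

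In the flanks of Gja1, the regions farthest from the gene stood higher in epithelium than in fiber at E14.5. A region 54.6 kb downstream, at the start of the long non-coding RNA gene Gm36595, was called in every list, with 40 fragments in epithelium and 21 in fiber at E14.5, and 15 and 7 at P0.5. The fiber peaks of the 2 stages shared no base there, with summits 366 bp apart, so the 7 fragments belong to a different summit. The region held the highest-ranked peak of Gja1 in E14.5 epithelium, at 15.6% of the list. Its depth-scaled height at E14.5 was 2.81-fold higher in epithelium than in fiber, with an interval of 1.62 to 5.02, and 2.63% of the 61393 regions called in both lists leaned further toward epithelium. In epithelium it was 2.25-fold lower at P0.5, with an interval of 1.21 to 4.38. A region 38.0 kb upstream was called only at E14.5, with 34 fragments in epithelium and 28 in fiber. Its scaled height was 1.79-fold higher in epithelium, with an interval of 1.05 to 3.07. Of the regions called in both E14.5 lists, 12.5% leaned further toward epithelium. A region 8.01 kb upstream had 24 fragments in E14.5 epithelium, 31 in E14.5 fiber and 8 in P0.5 epithelium, and its E14.5 ratio of 1.14 had an interval of 0.641 to 2.01. A region 4.06 kb upstream was called in E14.5 epithelium alone, with 24 fragments, as were 12.9% of all merged regions. Inside the gene, an intron region 4.24 kb downstream of the start was called in P0.5 epithelium alone, with 11 fragments, as were 4.63%.

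Gja3 lies at chr14:57034460-57058030 on the minus strand of GRCm38 and spans 23571 bp. Its 2 curated transcripts start 307 bp apart, each with its own non-coding first exon, and share the second exon with all 1254 bp of coding sequence. Its window held 10 peaks in epithelium and 21 in fiber at E14.5, and 4 and 6 at P0.5. The windows of all genes held a median of 9, 11, 5 and 5 peaks. These peaks merged into 24 regions, of which 2 were called in every list and 15 in a single list. These shares of 8.33% and 62.5% were near the 10.9% and 59.5% of all merged regions.

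**Figure D2:**
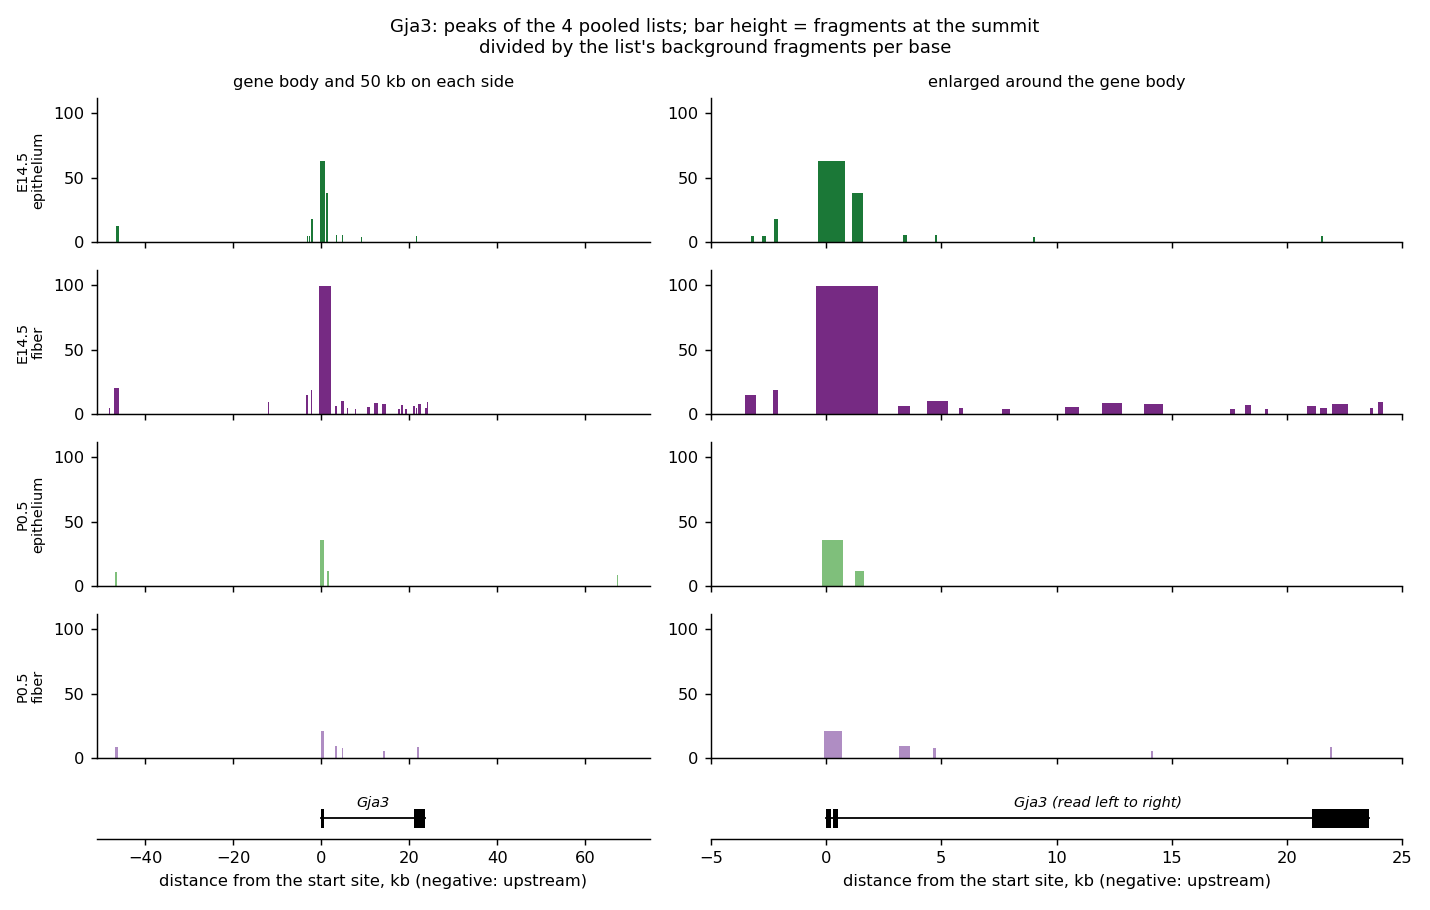
Peaks around Gja3 in the 4 lists by distance from the start site in kb, drawn as for Gja1, with the gene read from left to right. Bar height is summit fragments over the background of the list, on 1 scale for all lists. The start site carries the tallest bar of every list, and the E14.5 fiber list has the most bars along the gene body. Over the second exon, E14.5 epithelium and P0.5 fiber also have 1 low bar each.

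The highest-ranked peak of the Gja3 window lay at its start in all 4 lists. It had 101 summit fragments in epithelium and 237 in fiber at E14.5, and 49 and 24 at P0.5. Its rank by fold enrichment was 5.89%, 2.37%, 7.57% and 5.11% of the list, above the median promoter peak of all genes at 7.68%, 6.10%, 12.8% and 10.3%. The best peak in the window of a gene ranked at a median of 3.98%, 3.24%, 7.24% and 6.31%. The Gja3 peak stood below this median rank in both epithelium lists and above it in both fiber lists. Genes with a better-ranked peak in their window were the majority of genes in E14.5 epithelium only. The place of Gja3 among genes in P0.5 epithelium therefore depends on the measure. The depth-scaled heights were 62.8 (95% counting interval 51.2 to 76.3), 99.9 (87.6 to 113), 36.2 (26.7 to 47.8) and 20.7 (13.3 to 30.8). At E14.5 fiber exceeded epithelium 1.59-fold, with an interval of 1.26 to 2.03, and 90.9% of the regions called in both lists had a lower ratio. At P0.5 epithelium exceeded fiber 1.74-fold, with an interval of 1.05 to 2.97. Within the P0.5 lists the order by rank was the opposite, so the direction at P0.5 depends on the scale. Both tissues had less at P0.5, epithelium 1.74-fold with an interval of 1.22 to 2.50 and fiber 4.82-fold with an interval of 3.16 to 7.67. Of the regions called at both stages, 14% in fiber and 39.6% in epithelium had a lower ratio.

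All 4 summits at the start fell into the 82 bp between the first exons of the 2 transcripts, between 239 and 278 bp downstream of the outer start. The bases of this gap, chr14:57057724-57057805, are printed in the direction of the gene, followed by the outer promoter at chr14:57058101-57058280, which begins 250 bp before the RefSeq start and ends where GENCODE lets the first exon begin. The gap lies directly before the start of the inner transcript, so it is promoter sequence too. The 2 stretches show how the point of highest accessibility and the outer promoter differ in base composition.
Gja3 between the first exons: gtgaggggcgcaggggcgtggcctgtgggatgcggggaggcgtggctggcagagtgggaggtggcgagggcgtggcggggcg
Gja3 outer promoter: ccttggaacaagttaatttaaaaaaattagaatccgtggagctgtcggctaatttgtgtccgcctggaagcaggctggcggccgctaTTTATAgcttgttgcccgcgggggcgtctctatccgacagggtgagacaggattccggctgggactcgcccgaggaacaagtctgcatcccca
The gap was 78% G and C, the outer promoter 54.4%. In the outer promoter, capitals mark TATAAA on the opposite strand, the TATA motif, which begins 163 bp upstream of the outer start. Of stretches at the same distance before all RefSeq starts, 8.37% held it. None of the 14 motifs was present in the gap.

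The open start site also differed in breadth. The peak was 1169 bp wide in epithelium and 2718 bp in fiber at E14.5, and 895 bp and 805 bp at P0.5. Both epithelium lists had a second peak in the first intron, 1.42 kb downstream with 61 fragments at E14.5 and 1.38 kb downstream with 16 fragments at P0.5. In E14.5 fiber that place lay inside the single wide peak, and P0.5 fiber had no peak there.

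Beyond its start, more of the Gja3 gene body was in peaks in E14.5 fiber than in the other lists. The body overlapped 6 peaks in epithelium and 14 in fiber at E14.5, and 2 and 5 at P0.5. Of the 23 regions of the window called at E14.5, 14 were called in fiber and not in epithelium and 2 in epithelium and not in fiber. Over all regions called at E14.5 these shares were 40.1% and 19.7%. The 12 regions called only in E14.5 fiber were low, with 9 to 23 summit fragments, beside 29.3% of all merged regions with that pattern. Several of them would fall near or under the smallest peak of the other lists at their depth, as the 10 fragments at 7.99 kb downstream correspond to 6.78 in E14.5 epithelium, where the smallest peak had 7. Counting only peaks above the scaled height of 5.18 that every list could call, a choice made after the values were seen, left 15 regions. Of these, 9 were called in E14.5 fiber and not in E14.5 epithelium and 0 the other way. That height kept 87.9% of the E14.5 epithelium peaks and 64.1% of the E14.5 fiber peaks, and the shares over all regions were not computed for it.

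The coding sequence of Gja3 was itself in peaks. It was covered to 9.41% in epithelium and 68.6% in fiber at E14.5, and 0 and 9.73% at P0.5. In E14.5 fiber 2 peaks had their summits in it, one of 694 bp with 19 fragments and one of 319 bp with 12. The peak of E14.5 epithelium, 118 bp wide with 8 fragments, lay within the second of these. P0.5 fiber had a peak of 122 bp with 10 fragments, which overlapped the first at its edge and had its summit 252 bp from that of E14.5 fiber. This merged region and one 14.1 kb downstream in the intron were the 2 called in both fiber lists and in no epithelium list, a pattern that 2.43% of all merged regions had. P0.5 fiber peaks covered 122 of 802 bp of the first and 103 of 795 bp of the second, and with 50% of a region required neither kept this pattern, which 1 other region, 3.45 kb downstream, then had.

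Upstream of Gja3, a region at the start of Gjb2, the gene of connexin 26, was called in every list 46.6 kb from the Gja3 start. It had 20 summit fragments in epithelium and 48 in fiber at E14.5, and 15 and 10 at P0.5. The ratio of fiber to epithelium was 1.63 at E14.5, with an interval of 0.948 to 2.89, and 0.780 at P0.5, with an interval of 0.314 to 1.86 and summits 172 bp apart. A region 2.22 kb upstream was called at E14.5 only, with 29 fragments in epithelium and 45 in fiber, and its scaled heights of 18.0 and 19.0 gave a ratio of 1.05 with an interval of 0.645 to 1.74. A region 3.25 kb upstream had 8 fragments in epithelium and 35 in fiber. There fiber exceeded epithelium 2.97-fold in scaled height, with an interval of 1.35 to 7.40, and 99.0% of the regions called in both lists had a lower ratio. The 50 kb downstream of Gja3, which hold the coding gene B020004C17Rik, had no covered base in E14.5 epithelium or P0.5 fiber and no peak over that gene in any list.

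The merged regions can also be counted pair by pair of lists, each count beside the same share over all regions called in either list. At E14.5, Gja1 had 2 regions in epithelium and not in fiber, 2 the reverse and 4 in both, beside the 19.7% and 40.1% given above. At P0.5, Gja1 had 3 regions in epithelium and not in fiber, 0 the reverse and 2 in both. Gja3 had 1, 4 and 2, and over all regions called at P0.5 the first share was 35.2% and the second 39.6%. In fiber, Gja1 had 4 regions at E14.5 and not at P0.5 and Gja3 had 15. None was called the other way for either gene, and 2 and 6 regions were in both lists. The Gja1 region 54.6 kb downstream counts as in both, although its fiber peaks shared no base. The shares over all fiber regions were 62.5% and 17.6%. In epithelium, Gja1 had 2 regions at E14.5 only, 1 at P0.5 only and 4 at both stages, and Gja3 had 7, 1 and 2. Over all epithelium regions 49.7% were called at E14.5 only and 11.2% at P0.5 only.

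**Figure D3:**
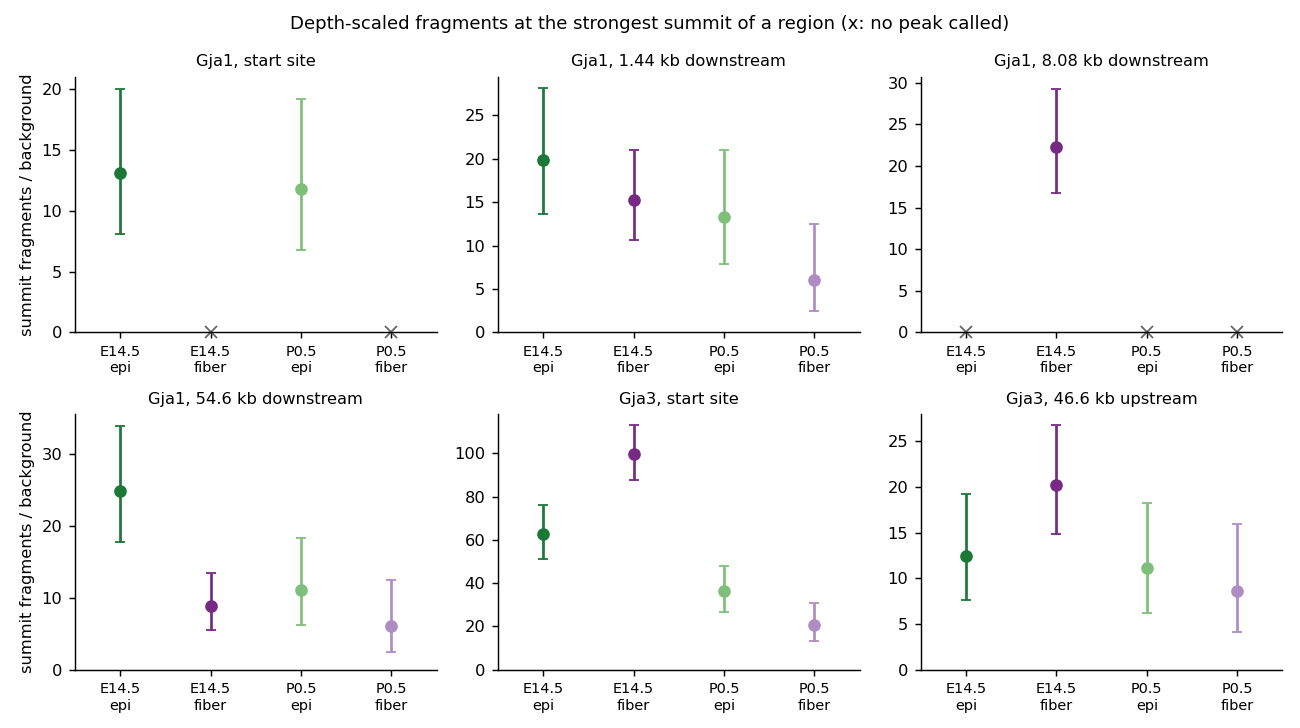
Summit fragments divided by the background of the list (vertical axes, with a scale for each panel) in the 4 lists for 4 Gja1 regions and 2 Gja3 regions. Points are single pooled lists, bars are exact 95% Poisson intervals for counting error, and a cross marks a list without a peak. The Gja3 start site reaches 99.9 in E14.5 fiber, and the Gja1 start site has points in the epithelium lists only. The summits of a region can lie at different bases, by up to 512 bp in the Gja1 intron region at 1.44 kb.

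In gene body coverage both connexins stood highest in E14.5 fiber. Gja1 was covered to 9.39% in epithelium and 17.4% in fiber at E14.5, and 9.76% and 1.62% at P0.5. Of 19556 protein-coding genes of at least 1 kb, 79.8%, 83.2%, 90.5% and 54.9% had less in these lists. Gja3 was covered to 7.76%, 36.4%, 4.68% and 6.32%, with 76.1%, 93.4%, 78.6% and 81.6% of genes lower. At E14.5 coverage in fiber was 1.86 times that in epithelium for Gja1 and 4.69 times for Gja3, and 26.2% of genes covered in either list reached a ratio of 2. At P0.5 the coverage of Gja1 was 6.04 times higher in epithelium than in fiber, and 19.2% of genes covered in either list reached a ratio of 2, while that of Gja3 was 1.35 times higher in fiber. Between the stages, P0.5 fiber coverage of Gja1 was 10.8 times lower and that of Gja3 5.76 times lower, and 66.5% of genes had a ratio of at least 2. In epithelium it went from 9.39% to 9.76% for Gja1 and from 7.76% to 4.68% for Gja3. The single Gja1 peak in the P0.5 fiber body had q above 0.001 and shared its rank with a tie of 13934 peaks, so at that q the coverage of Gja1 in P0.5 fiber is 0. Leaving out the 2 kb next to the start, coverage of Gja1 was 0.513%, 7.90%, 0.872% and 0 and that of Gja3 2.29%, 30.5%, 0 and 3.67%.

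**Figure D4:**
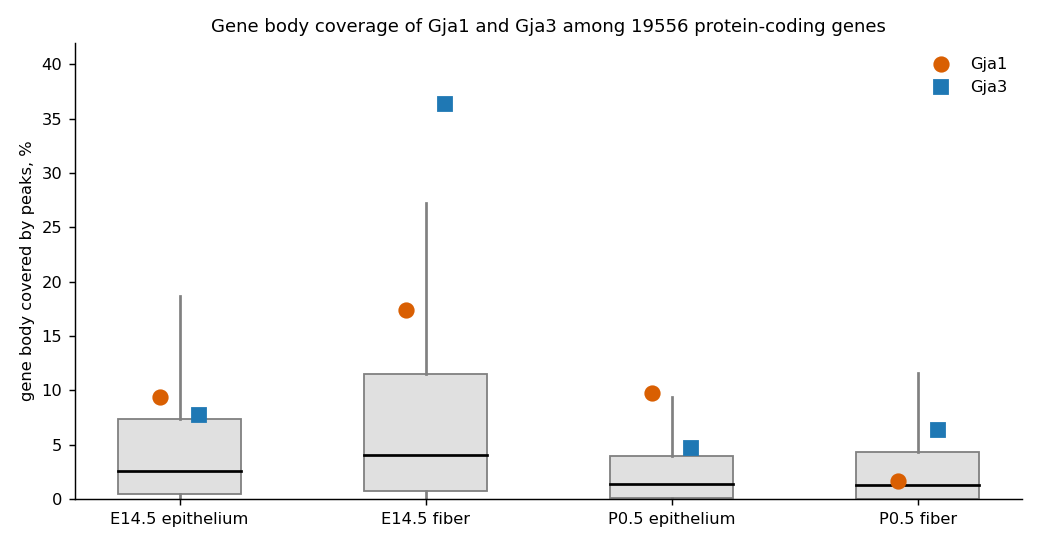
Gene body coverage in percent (vertical axis) of Gja1 and Gja3 in each list, over the distribution of 19556 protein-coding genes. Boxes span the middle 50% of genes, the black line is the median and the thin lines reach the percentiles 10 and 90. Gja3 in E14.5 fiber, at 36.4%, lies above the upper line, and Gja1 in P0.5 fiber, at 1.62%, lies near the median of 1.29%.

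Other connexin genes gave a mixed picture. Of 16 such genes, 10 had a peak within 2 kb of a start in epithelium and 13 in fiber at E14.5, and 8 and 10 at P0.5. Among all protein-coding genes of at least 1 kb, 74.8%, 75.7%, 71.3% and 68.8% had one. Median gene body coverage of the 16 was 4.67%, 6.18%, 2.32% and 1.06%, beside 2.55%, 4.06%, 1.39% and 1.29% over all genes. Gjd3 had 41.3%, 44.1%, 26.4% and 19.2%, the highest of the 16 except in P0.5 fiber. Gja10 had 20.7%, 34.7%, 6.52% and 0, and Gjb2 had 12.0%, 13.2%, 6.18% and 7.38%. Gja4, the gene of connexin 37, reached its highest value, 19.7%, in P0.5 fiber, where it was above Gjd3. Gja6, Gjc3 and Gjd4 had no covered base in their gene bodies in any list. In E14.5 fiber, Gjd3 was the only one of the 16 with more coverage than Gja3, and Gja10 came next below it. Of the pannexins, channel proteins unrelated in sequence to connexins, Panx1 was covered to 3.13% to 6.35% and Panx2 to 1.19% to 10.7% in the 4 lists, and Panx3 only at P0.5.

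**Figure D5:**
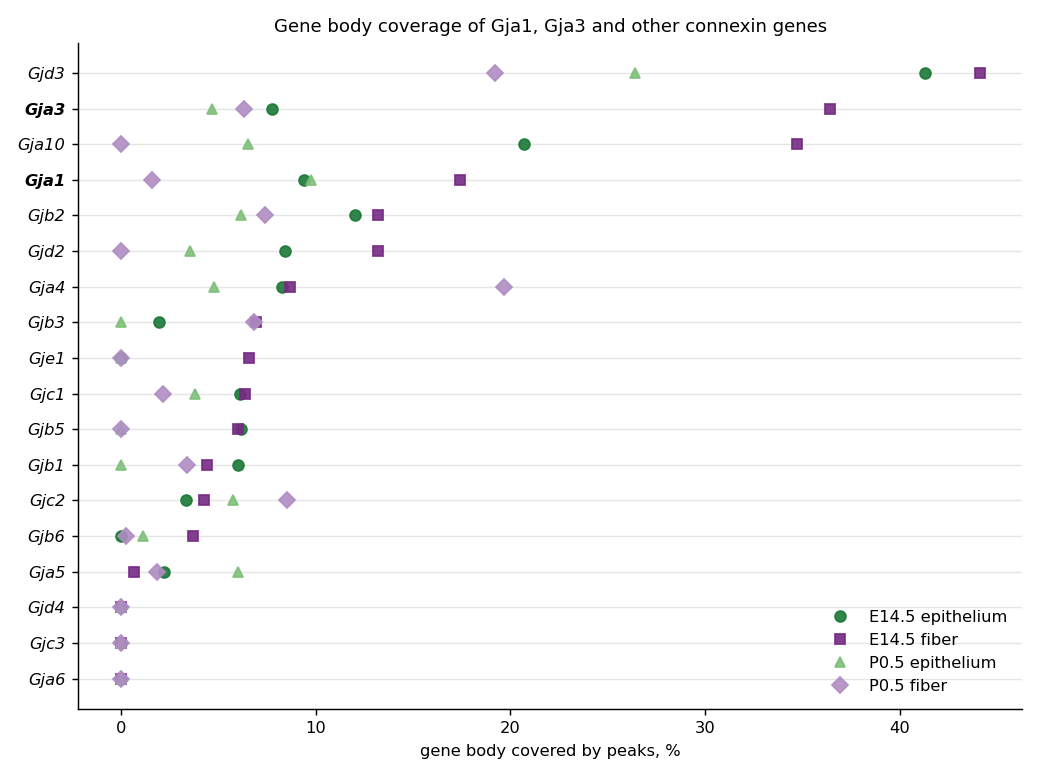
Gene body coverage in percent (horizontal axis) of Gja1, Gja3 (bold) and 16 other connexin genes, 1 row for each gene ordered by E14.5 fiber, with 1 symbol for each list. Gja3 has 36.4% in E14.5 fiber and at most 7.76% in the other lists.

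Of 13 genes whose proteins bind or modify connexins or share their junctions and membranes, 8 had at least 2 times the coverage in E14.5 fiber that they had in E14.5 epithelium, and 0 the reverse, beside 26.2% and 3.23% of all genes. They had a median of 6.32%, 18.1%, 2.69% and 2.71%. Tjp1, the scaffold protein ZO-1 that binds the tail of connexins, had 2.19% in epithelium and 20.3% in fiber at E14.5. Tjp3, of the same family, had 26.3% and 18.1%, the only one of the 13 with less in fiber. Mip, the aquaporin of fiber membranes, had 27.8%, 100%, 1.0% and 13.6%. Lim2, a fiber membrane protein, had 6.32%, 73.1%, 4.56% and 7.73%. Cav1, a caveolin, had 3.72% in both E14.5 lists. Mip and Lim2 are also in the list of fiber genes above, so the lists are not independent.

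Over the 4 lists, the genes closest to Gja1 in the percentile of coverage among 19556 genes were Eif1a, Zfp422, Col9a2, Flrt3 and Wnt5a, which differed from it by at most 3.61 to 5.35 percentile points in any list. Those closest to Gja3 were Synm, Rundc3a, Rbm24, Fgf17 and Pfkl, within 1.66 to 3.73 points. Synm, the nearest, had 8.46%, 40%, 4.56% and 6.41%. Eif1a, the nearest to Gja1, had 8.39%, 20.8%, 8.74% and 1.37%.

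Around the summits of the 33 merged regions of both genes, the 200-base stretches held the Maf motif TGCTGA in 9, or 27.3%, beside 23.1% of all merged regions. The AP-1 motif was present in 2, or 6.06%, beside 6.58%, and the Tead motif GGAATG in 1, or 3.03%, beside 13.7%. The TATA motif was found in 4, or 12.1%, beside 4.53%. Median GC content was 51.5% around the Gja1 summits and 52.8% around the Gja3 summits, beside 53.0% for all merged regions, with the highest value, 76.5%, at the Gja3 start.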

How the data were processed

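ATAC-seq libraries of 4 groups, 2 each, were analysed as 4 lists of peaks. The authors trimmed paired reads with Trim Galore 0.4.1, mapped them to mm10 (GRCm38) with Bowtie2 2.3.3.1, removed mitochondrial and duplicate reads with SAMtools 1.2 and Picard 2.1.1, and called peaks with MACS2 2.1 at q under 0.05. The authors deposited each list as called on the pooled libraries. The deposited −log10 p and −log10 q values and the authors' fold enrichment, a ratio of fragments to background at the summit, were used as deposited. The authors' peak score was not used. No column stayed unassigned (0).

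The members and gene lists were chosen with earlier results of these data known. Positions were set against curated RefSeq transcripts. A peak counted with 1 bp of overlap, ranks used fold enrichment within a list, and coverage used protein-coding genes of at least 1 kb. Summit fragments were recovered after the values had been seen: fold enrichment equals the fragments plus 1 over a single background plus 1 in every list. The p value so computed matched the deposited one within 0.001 on the −log10 scale for all peaks but 2, 7, 1 and 2 of the 4 lists. Ranks by fold enrichment and by p value are therefore the same by construction. Intervals are exact Poisson or binomial at 95% and cover counting error only. PCR duplicates had been removed by position, without molecular identifiers. Genes named are Gja1, Gja3, the curated genes of their windows, the other connexins, pannexins, connexin partners, cell type markers, and for each member the 5 genes of nearest coverage percentile. Part of the connexin family is not reported here.

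Motifs were searched on both strands as AP-1 TGANTCA, Maf TGCTGA, Tead GGAATG, Sox ACAATG, the Gata motif AGATAA, Ets GGAAGT, Fox TGTTTA, Sp1 GGGCGG, Hsf GAANNTTC, Pitx GGATTA, Meis TGACAG, RXR AGGTCA, AP-4 CAGCTG and TATAAA of the TATA box. No printed sequence overlaps a RefSeq exon or a GENCODE untranslated region of Gja1 or Gja3. Exons of non-coding GENCODE transcripts were not checked. Software was python 3.11.15, pandas 2.3.3, numpy 2.4.6, scipy 1.17.1, bedtools 2.31.1, pysam 0.24.0, samtools 1.23.1 and matplotlib 3.10.9, and the functions were tested on simulated peaks.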

Additional observations from a re-analysis of the deposited data

Results flagged for a closer look

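In the following pairs the values have opposite signs, or ratios on either side of 1, at the 2 stages or in the 2 tissues. With 1 pooled list in each group, none of these differences was tested.

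Gene body coverage of Gja1 in epithelium minus that in fiber was -8.06 percentage points at E14.5 and 8.14 at P0.5. Coverage of Gja1 at E14.5 minus that at P0.5 was -0.366 percentage points in epithelium and 15.8 in fiber. The epithelium values were close, and no error is known for a coverage percentage, so no direction is read from them. The value in P0.5 fiber rests on 1 peak of 7 fragments.

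At the start of Gja3, the depth-scaled summit height in fiber was 1.59 times that in epithelium at E14.5 and 0.573 times at P0.5. The order by rank at P0.5 was the reverse, so that direction depends on the scale. At the start of Gjb2, 46.6 kb upstream of Gja3, these ratios were 1.63 and 0.780, with the P0.5 summits 172 bp apart and 1 within both intervals. The median ratio of all regions called in both lists was 0.932 at E14.5 and 0.620 at P0.5. Set against these medians, the P0.5 ratio was below the median at the Gja3 start, where 43.4% of regions had a lower ratio, and above it at Gjb2, where 67.3% had.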

How the results depend on the processing

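No paired analysis was possible because both libraries of a group were pooled before peaks were called, and leaving out a library could not be done for the same reason. Over 36 values, 134 of 184 alternatives stayed within 1.5 times for a count or within the binomial interval for a percent, and 50 moved. That interval takes neighboring bases or peaks as independent, so it only sorts the alternatives and does not measure error. Counting by summit, merging at 0 or 100 bp and adding predicted transcripts moved none. Ranking by p value could not move any, since both ranks are the same by construction. Rank percentages that moved at equal numbers of peaks did so only through the shorter lists. Shares over all merged regions were not computed for the alternatives. The cause was not tested where only a value is given. The limits are the depth of each list and the absence of replicate values.

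At q under 0.001, Gja1 coverage was 16.2% in E14.5 fiber and 0 in P0.5 fiber, with 0 peaks left in the P0.5 fiber window, and 1 region was called in E14.5 fiber and not in E14.5 epithelium. Gja3 coverage was 6.83% in epithelium and 33.2% in fiber at E14.5 and 5.88% in P0.5 fiber, with 6 peaks in E14.5 epithelium, and 0 regions were called in E14.5 epithelium and not in fiber. With equal numbers of the strongest peaks, Gja1 coverage was 16.2% in E14.5 fiber, 1 region was fiber-called only at E14.5, and its best ranks were 26.6%, 28.1% and 74.4% in E14.5 epithelium, E14.5 fiber and P0.5 fiber. Gja3 coverage was then 5.66%, 24.5% and 5.88% in these lists, and its best ranks were 10%, 5.01% and 5.50%. For both genes the best peak kept its place from the top, and its percentage differed only because the list was shorter. In the E14.5 epithelium and fiber windows of Gja3, 4 and 11 peaks stayed. Of 13 Gja3 regions, 8 were in 1 list, 8 in E14.5 fiber and not epithelium and 0 the reverse.

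Above the scaled height of 5.18, an alternative added after the values were seen, Gja1 coverage in E14.5 fiber was 16.2% with 1 region fiber-called only at E14.5, and Gja3 coverage was 6.83% and 31.1% in E14.5 epithelium and fiber, with 6 peaks in the epithelium window and 15 regions, 8 in 1 list, 9 in E14.5 fiber and not epithelium and 0 the reverse. Without the 2 kb next to the start, coverage was 0.513%, 7.90%, 0.872% and 0 for Gja1 and 2.29%, 30.5%, 0 and 3.67% for Gja3. The best Gja1 rank within 2 kb of the start was 19.5% in both E14.5 lists. Windows of 20 kb left 1 Gja1 peak in P0.5 fiber and 2 Gja3 peaks in P0.5 epithelium, and windows of 100 kb gave 17 and 10 Gja3 peaks in E14.5 and P0.5 epithelium. Requiring peaks to cover 50% of a region gave 2 Gja3 regions called in P0.5 fiber and not in P0.5 epithelium, of which 1 was among the 4 called by any overlap, and 1 region in both fiber lists and no epithelium list, which was not among the 2 of that pattern by any overlap.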
